A study of Mus musculus with 4 samples.

Results

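The BCL-2 family decides whether the outer mitochondrial membrane of a cell is opened, the step that starts the intrinsic pathway of apoptosis. Its transcripts were followed here in mouse CD8 T cells that overexpress the transcription factor BATF. The 10 genes examined are the survival genes Bcl2, Bcl2l1 (BCL-XL) and Mcl1, the pore-forming genes Bax and Bak1, and the BH3-only genes Bcl2l11 (BIM), Bbc3 (PUMA), Pmaip1 (NOXA), Bid and Bad. They were chosen by name, and all 10 were found among the 24312 genes of the deposited table. All 10 passed the filter on low counts, with 321 to 9155 fragments per gene and library.

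Survival proteins hold the pore-forming proteins BAX and BAK in check. BH3-only proteins answer to stress or to the loss of growth factors, bind the survival proteins and release BAX and BAK, which then let cytochrome c out of the mitochondria and switch on caspases. In T cells, BIM removes cells when cytokines run short and when a response contracts, IL-2 and related cytokines sustain BCL-2 and MCL1, and FOXO factors are known activators of the Bcl2l11 and Bbc3 genes.

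The BATF group had 2 libraries from P14 CD8 T cells that carried the retroviral vector MIG with BATF, and the MIG group had 2 libraries from the same kind of cell with the vector alone. P14 cells bear a transgenic receptor for the gp33 peptide of lymphocytic choriomeningitis virus, here on a C57BL/6 background. MIG (MSCV-IRES-GFP) adds GFP to the cells that it enters, so BATF in these cells is driven by a viral vector and both groups were sorted for GFP. All cells were activated with 100 ng/ml gp33, transduced after 1 day, kept in activation for 1 day more, expanded for 2 days with 10 ng/ml IL-2, sorted as CD8+ GFP+, and held for another 2 days in 1 ng/ml IL-2 before RNA was taken. The sources used here do not give the age of the mice, the number of mice behind a library or the species of the BATF sequence. The comparison asks which transcripts of the family differ between CD8 T cells with added BATF and cells with the empty vector.

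The promoter windows of Bcl2l11 and Bbc3 shown here are those of the members' windows that held the letters GTAAACA, the core that FOXO proteins recognise. Other windows searched for both genes did not hold these letters. FOXO factors are textbook regulators of both genes. Whether the fall of Foxo1 described further on bears on either gene was not tested. Each window shown holds 300 bases around an annotated start, most of them upstream, from RefSeq on build GRCm38.p6. Capitals mark the letters GTAAACA on either strand.
Bcl2l11, chr2:128125788-128126087, plus strand: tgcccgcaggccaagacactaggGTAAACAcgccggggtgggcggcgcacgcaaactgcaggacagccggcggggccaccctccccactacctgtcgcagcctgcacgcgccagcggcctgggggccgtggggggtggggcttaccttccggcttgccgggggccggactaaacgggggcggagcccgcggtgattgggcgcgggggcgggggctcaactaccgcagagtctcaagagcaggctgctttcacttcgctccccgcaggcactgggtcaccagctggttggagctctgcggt
Bbc3, chr7:16310011-16310310, plus strand: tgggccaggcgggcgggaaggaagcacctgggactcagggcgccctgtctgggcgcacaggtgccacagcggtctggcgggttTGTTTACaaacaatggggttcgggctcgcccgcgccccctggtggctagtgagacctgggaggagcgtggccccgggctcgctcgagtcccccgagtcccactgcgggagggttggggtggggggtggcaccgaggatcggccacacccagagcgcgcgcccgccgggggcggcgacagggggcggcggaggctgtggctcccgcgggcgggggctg

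The match began 227 bases before the start in Bcl2l11 and 167 bases before it in Bbc3, where it lies on the opposite strand. The windows searched left out part of the genome and included 15 windows for 9 of the members. Of these 15, the 2 shown held GTAAACA, against 3.65% of all 32851 windows searched. By gene, 2 of the 9 members held it. FOXO factors were already known to act on both genes, and windows of Bbc3 overlap each other. The shares of windows are therefore a description and no test of enrichment. TGANTCA, the AP-1 core to which BATF binds with JUN proteins, was in 0 of the 15 member windows and in 7.81% of all windows. The GC box GGGCGG was in 10 of the 15, and in 35.7% of all. Each motif was searched on both strands, and a match describes letters only; no binding was measured in these libraries.

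The libraries held 19004726 and 21835962 fragments in BATF and 24795707 and 20354627 in MIG. Levels are given as CPM, the fragments of a gene relative to all fragments of its library after TMM scaling, and differences as log2 fold changes of BATF over MIG from edgeR's quasi-likelihood test, with p-values adjusted by the Benjamini-Hochberg method over all 13008 genes tested and a threshold of 0.05. The added gene itself, Batf, stood at 1342 and 934 CPM in BATF and at 36.1 and 26.5 CPM in MIG (a log2 fold change of 5.18 ± 0.24 SE and an edgeR adjusted p of 0.00188). The CD8 chain gene Cd8a stood at 423 and 599 CPM in BATF and at 659 and 750 CPM in MIG, and none of the 9 CD8 T cell markers passed the test. At an unadjusted edgeR p under 0.05, 3 of the 9 were lower in BATF, Cd8a among them, and 1 was higher. Of all genes tested, 4.09% were lower and 6.69% higher at that threshold. The defining markers of other cells were near 0: Cd4, Lyz2 and Ncr1 had at most 0.791, 0.340 and 0.105 CPM in any library. Over whole marker lists, the summed level was 43.2 and 35.1 CPM in BATF against 26.9 and 26.3 CPM in MIG for 8 myeloid and dendritic genes, led by Itgax, and 14.0 and 12.4 CPM against 18.7 and 15.0 CPM for 7 B cell genes, led by Cd79b. For 4 NK genes it was 0.527 and 0.460 CPM in BATF against 0.286 and 0.291 CPM in MIG. The 6 erythroid and stromal genes summed to 61.9 and 55.2 CPM in BATF and 89.0 and 61.3 CPM in MIG, nearly all of it Pecam1. The 5 CD4 and regulatory T cell genes, in which Ctla4 and Zbtb7b lead, summed to 150.5 and 129.5 CPM in BATF and 87.5 and 64.0 CPM in MIG. The part of these markers in the results on the family was not tested.

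No transcript of the family passed the test between cells with added BATF and cells with the empty vector. Of the 10 members, edgeR called 0, against 1.09% of all genes tested (0.884% higher and 0.208% lower in BATF). At an unadjusted p under 0.05 there were 2 members, against 10.8% of all genes. They were Bcl2l11 on the lower side, where 4.09% of all genes stood, and Bax on the higher side, where 6.69% stood. DESeq2 called 1 member, Bcl2l11, against 2.73% of its genes, and limma on log2(FPKM + 1) called 0, against 0.349%. The members' median log2 fold change was −0.099, beside −0.0056 over all genes tested. The 95% interval of the difference lay within 2-fold on either side for 9 of the 10, and that of Bbc3 reached past it on the lower side. The libraries of the groups did not overlap for 4 members, Bcl2l11, Mcl1 and Bad with BATF below MIG and Bax with BATF above, where 38.7% of all genes tested showed no overlap (19.2% above and 19.4% below). RNA came from bulk cultures, in which fewer cells of a kind and less RNA per cell cannot be told apart, and transcripts say nothing of protein levels or of how many cells died.

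**Figure D1:**
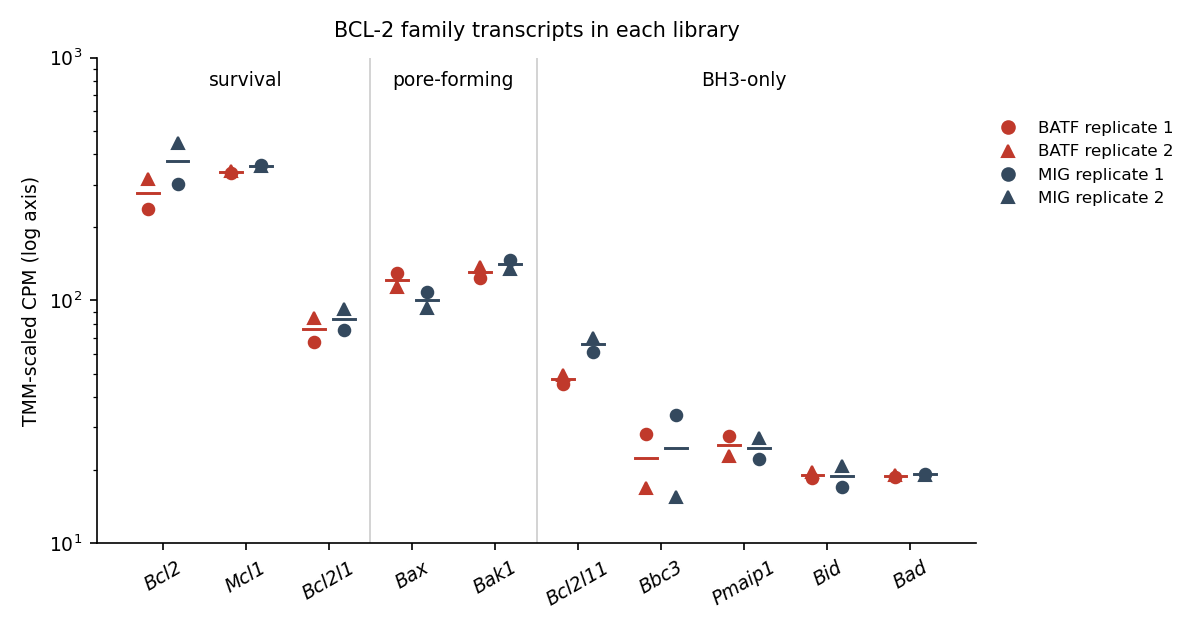
Level of each BCL-2 family transcript in each library, in TMM-scaled CPM on a log axis, with BATF left of MIG; points are libraries and bars are group means. The 4 points of Mcl1 lie between 334 and 361 CPM, while the points of Bbc3 spread from 15.6 to 33.7 CPM within MIG alone.

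Among the survival genes, Bcl2 had the largest log2 difference, which did not pass. Bcl2, the founding member, which keeps BAX and BIM bound, had 238 and 316 CPM in BATF libraries and 303 and 444 CPM in MIG libraries. The groups overlapped, since BATF replicate 2 lay above MIG replicate 1. Its mean was 277 ± 55.1 CPM in BATF and 374 ± 100.1 CPM in MIG (SD, n = 2 each), with a log2 fold change of −0.43 ± 0.20 SE, a 95% interval of −0.91 to 0.046 and an edgeR adjusted p of 0.533. The difference shrank to −0.14 without MIG replicate 2 and grew to −0.68 without MIG replicate 1. Within MIG the Bcl2 libraries were 0.55 apart on the log2 scale, farther than in 92.3% of all genes tested.

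Mcl1, a short-lived survival protein that T cells need at every stage, was the steadiest of the abundant members. It had 334 and 340 CPM in BATF libraries and 361 and 356 CPM in MIG libraries. Both BATF libraries were slightly below both MIG libraries. The log2 fold change was −0.090 ± 0.075 SE with a 95% interval of −0.27 to 0.089 (edgeR adjusted p = 0.822).

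Bcl2l1 encodes BCL-XL, a survival protein of activated T cells, and by another splice form the pro-death BCL-XS. The deposited gene totals do not separate them. The gene had 67.4 and 84.6 CPM in BATF libraries and 75.8 and 91.8 CPM in MIG libraries, and the groups overlapped (log2 fold change −0.14 ± 0.14 SE, 95% interval −0.47 to 0.20, edgeR adjusted p = 0.876). Its sign turned without BATF replicate 1 (log2 fold change 0.016).

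The pore-forming genes stood on opposite sides of 0. Bax, whose protein moves from the cytosol into the mitochondrial membrane, had 129.5 and 114 CPM in BATF libraries and 109 and 93.2 CPM in MIG libraries. Each BATF library was above each MIG library. Bax averaged 122 ± 11.3 CPM in BATF and 101 ± 10.8 CPM in MIG (SD, n = 2 each), a log2 fold change of 0.27 ± 0.11 SE with a 95% interval of 0.0074 to 0.53, and it did not pass (unadjusted p = 0.0453, edgeR adjusted p = 0.443). It was 0.16 without MIG replicate 2.

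Bak1 encodes BAK, which sits in the mitochondrial membrane of healthy cells, where MCL1 and BCL-XL hold it. It had 124 and 137 CPM in BATF libraries and 147 and 135 CPM in MIG libraries, with overlap between the groups (log2 fold change −0.11 ± 0.092 SE, 95% interval −0.33 to 0.11, edgeR adjusted p = 0.829). The ratio of Bax to Bak1 on the per-length FPKM scale was 2.83 and 2.23 in BATF libraries and 2.00 and 1.87 in MIG libraries, without overlap. Absence of overlap in the CPM of single genes was seen in 38.7% of all genes tested, and no such share was computed for ratios.

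Of the BH3-only genes, Bcl2l11 stood nearest to a call. Its protein BIM binds every survival protein of the family and is the main killer of cytokine-deprived T cells. Bcl2l11 had 45.1 and 49.5 CPM in BATF libraries and 61.6 and 70.3 CPM in MIG libraries. Every BATF library lay below every MIG library, with a wider gap between the groups than within either. It averaged 47.3 ± 3.08 CPM in BATF and 65.9 ± 6.16 CPM in MIG (SD, n = 2 each), a log2 fold change of −0.48 ± 0.11 SE with a 95% interval of −0.73 to −0.22.

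With an unadjusted p of 0.00303, Bcl2l11 ranked 320 of the 13008 genes, and it missed the threshold after adjustment (edgeR adjusted p = 0.123). The adjusted p was 0.0447 in DESeq2 and 0.0405 in edgeR without MIG replicate 1, a fit that called 1.79% of its genes. Leaving out MIG replicate 2 gave 0.0627, while leaving out a BATF library gave 0.499 (replicate 1) or 0.191 (replicate 2). Such fits take the spread from the group that keeps both libraries. The log2 fold change of Bcl2l11 stayed between −0.57 and −0.39 over all alternatives run. BIM is made in splice forms of different potency, which the gene totals do not separate.

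**Figure D2:**
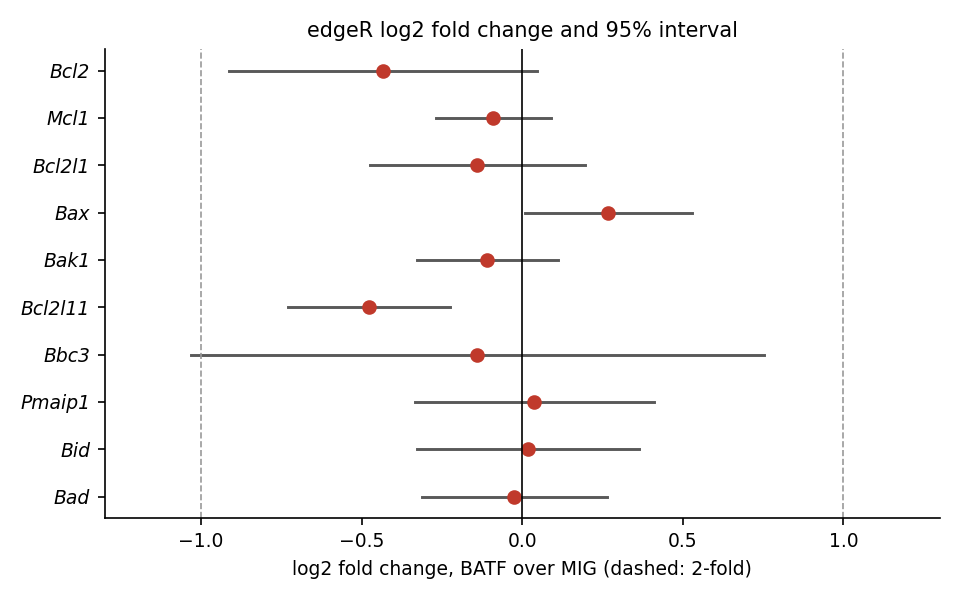
Log2 fold change of each member, BATF over MIG, with its 95% interval from edgeR's quasi-likelihood fit (points and bars, n = 2 libraries per group); dashed lines mark 2-fold. The intervals of Bcl2l11 and Bax exclude 0, and that of Bbc3 is the widest, from −1.03 to 0.75.

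Bbc3 encodes PUMA, a BH3-only protein that p53 and FOXO factors induce. Its libraries differed more within a group than between groups. It had 28.1 and 16.9 CPM in BATF libraries and 33.7 and 15.6 CPM in MIG libraries. MIG replicate 1 held 2.17 times the level of MIG replicate 2, a gap wider than in 99.4% of all genes tested, and BATF replicate 1 held 1.66 times the level of BATF replicate 2. The log2 fold change was −0.14 ± 0.37 SE (95% interval −1.03 to 0.75, edgeR adjusted p = 0.967), which became 0.53 when MIG replicate 1 was left out and −0.60 when MIG replicate 2 was. Leaving out BATF replicate 2 gave 0.18, and leaving out BATF replicate 1 gave −0.55.

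Pmaip1 encodes NOXA, another p53-responsive protein, which binds MCL1 above all. It had 27.8 and 22.8 CPM in BATF libraries and 22.2 and 27.1 CPM in MIG libraries, so that the groups lay over each other (log2 fold change 0.038 ± 0.16 SE, 95% interval −0.33 to 0.41, edgeR adjusted p = 0.982).

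Bid, which links death receptors to mitochondria once caspase-8 cuts it, had 18.6 and 19.6 CPM in BATF libraries and 17.0 and 20.7 CPM in MIG libraries (log2 fold change 0.018 ± 0.15 SE, 95% interval −0.33 to 0.36). Bad, which growth factor signalling disarms by phosphorylation, had 18.8 and 19.1 CPM in BATF libraries and 19.4 and 19.2 CPM in MIG libraries (log2 fold change −0.024 ± 0.12 SE, 95% interval −0.31 to 0.26). Both BATF libraries of Bad were below both MIG libraries by under 1 CPM. Their edgeR adjusted p-values were 0.994 and 0.987.

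Some members share exonic bases with a neighbour in the GENCODE M21 annotation of GRCm38, and reads of a gene and of its antisense partner cannot be told apart here, since the library kit that the labels name does not mark strand. The share was 25.5% of the exonic bases of Bak1 (with Ggnbp1), 20.5% of Bad (with Gpr137), 17.7% of Bid (with Bcl2l13), 12.2% of Bax and 6.09% of Bcl2. Bcl2l13, on the strand opposite to Bid, had 12.2 and 13.5 FPKM in BATF libraries and 13.2 and 12.9 FPKM in MIG libraries, close to the FPKM of Bid, while Ggnbp1 stayed at or below 0.402 FPKM. Gpr137, on the strand opposite to Bad, had 4.05 and 4.68 FPKM in BATF libraries and 5.39 and 4.91 FPKM in MIG libraries. The neighbour of Bax lies on the same strand, so it is not an antisense partner, and that of Bcl2 lies on the opposite strand. Neither is among the genes of the deposited table. How far shared bases moved any of these 5 members was not tested. Bcl2l11, Bbc3, Pmaip1, Mcl1 and Bcl2l1 shared 0 exonic bases with another gene.

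Levels of different genes were compared on the deposited FPKM, which is per transcript length. Bax was the most abundant member with 189 and 168 FPKM in BATF libraries and 163 and 135 FPKM in MIG libraries. Mcl1 came next, with 98.6 and 102.2 FPKM in BATF and 109.9 and 104.6 FPKM in MIG, and then Bak1 with 66.8 and 75.3 FPKM in BATF and 81.6 and 72.1 FPKM in MIG. Bcl2 and Bcl2l1 followed. In BATF their library values overlapped, at 35.5 and 46.5 FPKM for Bcl2 and 29.0 and 37.1 FPKM for Bcl2l1, while in MIG they did not, at 45.7 and 63.2 FPKM for Bcl2 and 33.6 and 39.2 FPKM for Bcl2l1. The order of these 5 genes by mean was shared by both groups.

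Bad led the BH3-only genes at 22.6 and 23.5 FPKM in BATF libraries and 23.9 and 23.0 FPKM in MIG libraries. Bbc3, Bid, Bcl2l11 and Pmaip1 lay together below it, and neighbours among these 4 overlapped in both groups. Bcl2l11 took place 9 of the 10 members in BATF, at 10.2 and 11.1 FPKM, and place 7 in MIG, at 13.9 and 15.3 FPKM. Of the summed BH3-only FPKM, Bcl2l11 made up 14.6% and 17.2% in BATF libraries and 18.3% and 22.1% in MIG libraries. The groups did not overlap in this percentage. In CPM of single genes, 38.7% of all genes tested did not overlap, which is another measure.

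Ratios between members were computed per library on the FPKM scale, as a description with no test. They reuse the member values given above. In CPM of single genes, 38.7% of all genes tested showed no overlap between the groups, and no such share was computed for ratios. The ratio of Bcl2 to Bcl2l11 was 3.49 and 4.19 in BATF libraries and 3.29 and 4.14 in MIG libraries. These values overlapped. The ratio of Mcl1 to Bcl2l11 was 9.70 and 9.21 in BATF libraries and 7.90 and 6.85 in MIG libraries, and here the groups stood apart.

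The ratio of Bax to Bcl2 was 5.32 and 3.61 in BATF libraries and 3.56 and 2.13 in MIG libraries, so that BATF replicate 2 only just cleared MIG replicate 1. The 3 survival genes summed to 163 and 186 FPKM in BATF libraries and 189 and 207 FPKM in MIG libraries. The 5 BH3-only genes summed to 69.8 and 64.7 FPKM in BATF libraries and 76.0 and 69.2 FPKM in MIG libraries. The ratio of these sums was 2.33 and 2.87 in BATF libraries and 2.49 and 2.99 in MIG libraries, with overlap.

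**Figure D3:**
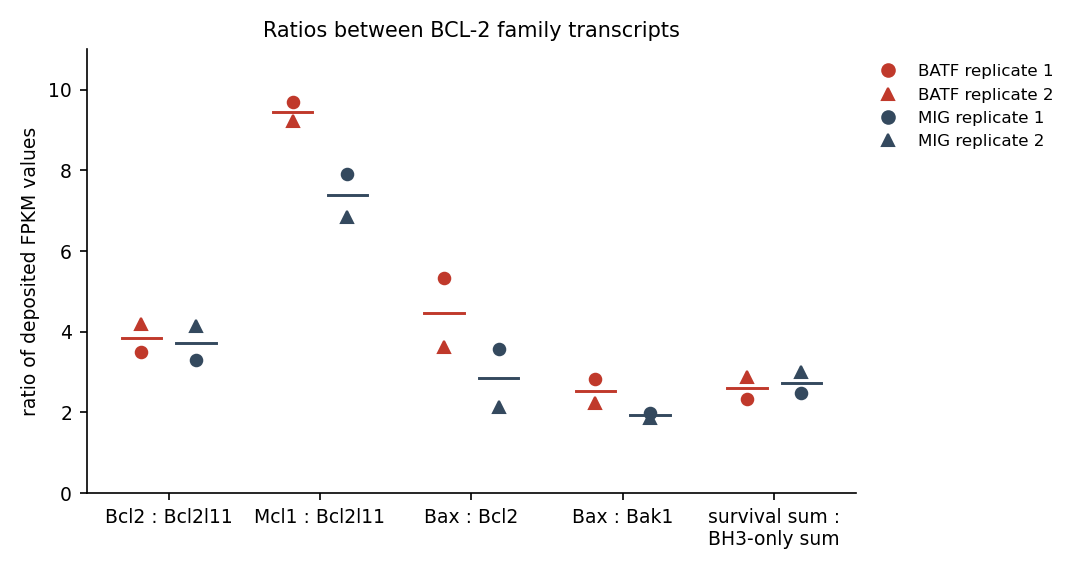
Ratios between members in each library, from deposited FPKM values, with BATF left of MIG; points are libraries and bars are group means. The ratio of Mcl1 to Bcl2l11 is higher in both BATF libraries (9.70 and 9.21) than in either MIG library (7.90 and 6.85), whereas the ratio of Bcl2 to Bcl2l11 overlaps.

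Further genes of the pathway were taken from 9 lists with 99 genes. Of these, 91 were tested and 6 called, beside 1.09% called of all genes tested. The lists were chosen with earlier results of these data known, so this share is a description and no test of the pathway. Trp73, 1 of the 6 called, passed the filter on low counts through the BATF libraries. The rest of the BCL-2 family held 1 of the 6. Bnip3, a BH3-like protein of mitochondrial turnover that hypoxia induces, rose to 77.4 and 109.6 CPM in BATF libraries, against 35.4 and 44.5 CPM in MIG libraries (log2 fold change 1.23 ± 0.19 SE, edgeR adjusted p = 0.0380). In limma on log2(FPKM + 1) it missed the threshold (adjusted p = 0.0772). Bnip3 was 1 of 5 pro-death relatives tested, whose median log2 fold change was 0.23. Its relative Bnip3l stood at 116 and 108 CPM in BATF and 103.5 and 100.1 CPM in MIG (log2 fold change 0.13), and the BH3-only gene Bmf at 8.59 and 4.50 CPM in BATF and 5.64 and 3.11 CPM in MIG (0.57).

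Of 6 further pro-survival relatives, 3 were tested and 0 were called by edgeR. At an unadjusted p under 0.05, 2 of them stood on the higher side, against 6.69% of all genes tested. DESeq2 called 1 of them upward, against 2.73% of its genes called in either direction. Bcl2l2, which encodes BCL-W, had 10.9 and 10.2 CPM in BATF libraries and 7.88 and 7.38 CPM in MIG libraries (log2 fold change 0.46 ± 0.15 SE, edgeR adjusted p = 0.286). Bcl2a1b had 5.11 and 8.04 CPM in BATF libraries and 2.17 and 2.62 CPM in MIG libraries (log2 fold change 1.47, edgeR adjusted p = 0.0794). This copy of the survival gene A1 is named outside the rule, after its values were seen. The A1 copies are nearly identical, and fragments may have been split between them.

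Of 12 apoptosome and mitochondrial release genes edgeR called 0. At an unadjusted p under 0.05 there was 1, against 10.8% of all genes. It was Apaf1, the caspase-9 scaffold (148 ± 14.6 CPM in BATF and 125 ± 4.04 CPM in MIG, SD, n = 2 each). Diablo, whose protein neutralises inhibitors of apoptosis, had a log2 fold change of 0.36, and Aifm1, a mitochondrial flavoprotein, one of −0.12. DESeq2 also called 0 of these 12.

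EdgeR and DESeq2 called 0 of 7 inhibitors of apoptosis and 0 of 11 death receptor genes, and in neither list did a gene reach an unadjusted p under 0.05. Among inhibitors with at least 5 CPM the largest log2 fold changes were those of Birc3 (−0.094), Birc2 (−0.082) and Birc6 (0.054). The death receptor Fas had 8.65 and 4.78 CPM in BATF libraries and 11.7 and 7.47 CPM in MIG libraries (log2 fold change −0.53, edgeR adjusted p = 0.687), its ligand Fasl had a log2 fold change of −0.29, and the TNF receptor Tnfrsf1a one of −0.25.

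Genes of the p53 pathway, to which Bbc3, Pmaip1 and Bax also respond, stood mostly higher in BATF. Of 16 tested, 13 had a positive log2 fold change, where 6310 of all 13008 genes tested did. The list's median was 0.34 beside −0.0056 over all genes. This list too was chosen with earlier results of these data known. Cdkn1a, which encodes the cell cycle inhibitor p21, was the 1 called and rose to 123 and 118 CPM in BATF libraries, against 55.5 and 61.1 CPM in MIG libraries (log2 fold change 1.05 ± 0.089 SE, edgeR adjusted p = 0.00839). At an unadjusted p under 0.05 there were 8 on the higher side, among them Ccng1 (log2 fold change 0.48) and Phlda3 (0.76), against 6.69% of all genes. Trp53 itself, named outside the rule, stood at 224 and 214 CPM in BATF and 237 and 201 CPM in MIG. The members that p53 is known to induce had log2 fold changes of 0.27 (Bax), 0.038 (Pmaip1) and −0.14 (Bbc3), and 0 of these 3 passed. DESeq2 called 3 of the 16 genes, all higher in BATF, against 2.73% of its genes called in either direction.

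**Figure D4:**
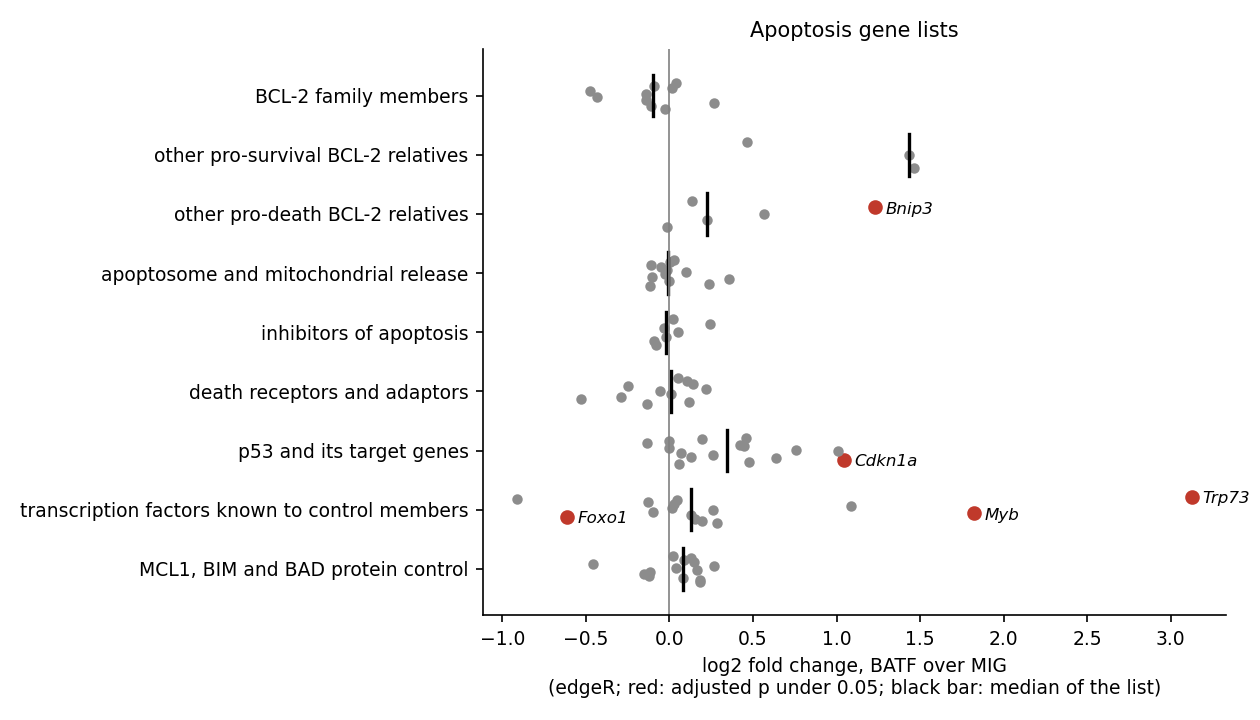
Log2 fold change, BATF over MIG, of every tested gene of the members' list and of further lists of the pathway; red points passed edgeR's test at an adjusted p under 0.05 and black bars are list medians. The red points are Bnip3, Cdkn1a, Myb, Trp73 and Foxo1, and of these Foxo1 is the 1 on the lower side.

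Of 15 transcription factors known to act on members, 2 rose and 1 fell, where 0.884% of all genes tested rose and 0.208% fell. Foxo1, a factor of quiescent T cells that activates Bcl2l11 in many cell types, fell to 146 and 150 CPM in BATF libraries, against 225 and 228 CPM in MIG libraries (log2 fold change −0.61 ± 0.076 SE, edgeR adjusted p = 0.0229). Its call was lost without BATF replicate 1 (0.0604) and without BATF replicate 2 (0.0620), and in limma on log2(FPKM + 1) (0.0679). Foxo3, another FOXO gene of this list and named outside the rule, did not fall. It stood at 56.2 and 56.6 CPM in BATF and 56.7 and 46.1 CPM in MIG (log2 fold change 0.13, edgeR adjusted p = 0.848). Myb, a known activator of Bcl2, rose to 43.8 and 38.6 CPM in BATF libraries, against 13.3 and 9.90 CPM in MIG libraries (log2 fold change 1.82 ± 0.17 SE, edgeR adjusted p = 0.00955), while Bcl2 itself did not pass. Trp73, a p53 relative, rose to 4.32 and 5.19 CPM in BATF libraries, against 0.327 and 0.777 CPM in MIG libraries (log2 fold change 3.13 ± 0.39 SE, edgeR adjusted p = 0.0229). It passed the filter on low counts through the BATF libraries, and in limma on log2(FPKM + 1) with no filter its log2 fold change was 0.81, without a call (adjusted p = 0.191). Tcf7 had a log2 fold change of −0.91 and Runx1 one of 1.09, and neither passed (edgeR adjusted p = 0.123 and 0.199).

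Of 14 tested genes whose proteins control MCL1, BIM or BAD, edgeR and DESeq2 called 0. At an unadjusted edgeR p under 0.05 there was 1, against 10.8% of all genes. That was Pim1, a kinase that phosphorylates BAD, at 270.5 and 259 CPM in BATF libraries and 225 and 216 CPM in MIG libraries (log2 fold change 0.26, edgeR adjusted p = 0.237). Pim2 had a log2 fold change of −0.46 and Akt1 one of 0.19. The list's median was 0.082.

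Among the 91 tested genes of these lists, the profile closest to that of each member was found by the Euclidean distance between log2 CPM values centred on their mean over the 4 libraries. Foxo1 (distance 0.20) and Fasl (0.22) were nearest to Bcl2l11. Fasl (0.24) and Pim2 (0.29) were nearest to Bcl2, Apaf1 (0.11) and Trp53inp1 (0.12) to Bax, and Birc2 (0.018) and Gsk3b (0.057) to Mcl1. For Bbc3 the nearest, Endog, was 0.49 away. With 4 libraries such a likeness describes these samples only. It reuses the values behind the fold changes given above and is no separate evidence of a link between genes.

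**Figure D5:**
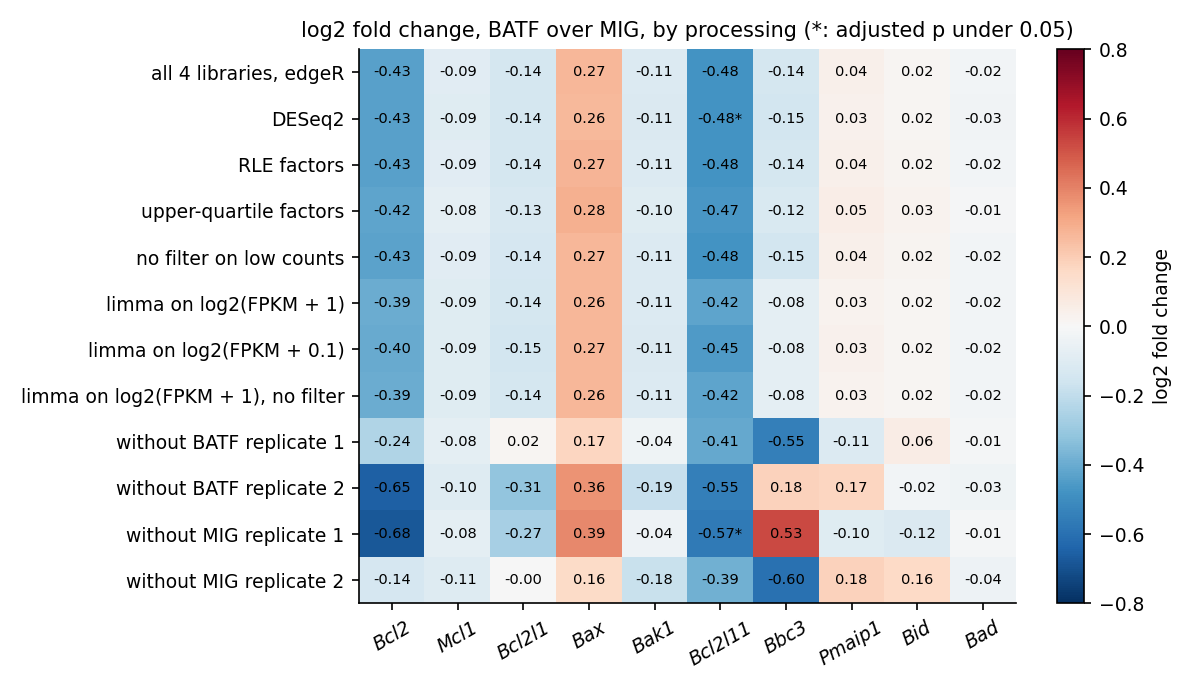
Log2 fold change of each member, BATF over MIG, with all libraries and under 11 of the 12 alternatives (rows); a star marks an adjusted p under 0.05, and the alternative that blocks on replicate number is not drawn. Bcl2l11 is negative in every row drawn, from −0.57 to −0.39, with a star in DESeq2 and without MIG replicate 1, and Bbc3 changes sign with the library left out.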

How the data were processed

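The members and gene lists were chosen with earlier results of these data known. Per the submitters' processing notes, the tools were TopHat2 2.1.1, Cufflinks 2.2.2 and Cuffdiff, with build mm9; no source used here names the gene annotation. Per the file headers, the deposited Cuffdiff table holds estimated counts (fragments assigned per gene and library, before scaling), a scaled fragment signal made with 1 factor per library, which served only as a check, and FPKM, that signal per transcript length. The table numbers libraries 0 and 1, read here as replicates 1 and 2 of the titles, so numbers only name libraries. The series' design text calls them biological replicates, without saying whether they came from separate mice; if not, the p-values reflect technical spread. Replicates differed by more than counting noise (chi-square per gene 9.49 in BATF and 17.7 in MIG). All 40 member values were whole numbers (tolerance 0) with status OK.

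Estimated counts were rounded and tested with edgeR 4.0.16 in R 4.3.3 (filterByExpr, TMM factors 0.989 to 1.01, glmQLFit and glmQLFTest, group as the only term; biological coefficient of variation 11.3%). The standard error (SE) is the unshrunk coefficient over the square root of F, and 95% intervals use the test's degrees of freedom. With 2 libraries against 2, an exact permutation test cannot go below p = 0.333, so none was run. The fit was tested on simulated data. Alternatives were DESeq2 1.42.0, other scalings, no filter, limma 3.58.1 on log2(FPKM + 1) or log2(FPKM + 0.1) with a mean FPKM of at least 1 or no filter, each library left out, and the replicate number as a block. Named genes were all members, each called gene of the 9 lists, the 3 largest differences per list with a mean of at least 5 CPM, and the 2 list genes nearest to each member. Some genes and 1 of the lists are not reported here by name, though the totals include them.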

Additional observations from a re-analysis of the deposited data

How the results depend on the processing

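EdgeR called 142 genes, 6 of them in the 9 apoptosis lists, and 0 members. RLE (146) and upper-quartile (154) factors left these counts within 1.5 times. DESeq2 called 345 genes and 1 member. No filter on low counts gave 349 genes, 0 members and 10 list genes. Limma on FPKM called 36 (pseudocount 1), 49 (pseudocount 0.1) and 3 genes (no filter), with 2, 2 and 0 list genes and 0 members. With 1 library left out, edgeR called 248 to 589 genes, 0 to 1 members and 8 to 10 list genes. The signs of Bcl2l1 (−0.31 to 0.016), Bid (−0.12 to 0.16), Bbc3 (−0.60 to 0.53) and Pmaip1 (−0.11 to 0.18) turned with the library left out, and those of the other 6 members did not turn in any alternative run. The cause was not tested. Libraries of the same number deviated together (correlation of deviations 0.18 over all genes tested and 0.56 over genes above 5 CPM), a hint from the data and not from the labels. With the replicate number as a block, which leaves 1 degree of freedom, edgeR called 1504 genes (11.6%), 25 list genes and 3 members: Bcl2 (−0.42, adjusted p = 1.78e-06), Bcl2l11 (−0.48, 8.41e-07) and Bax (0.27, 0.0070). Bnip3 and Foxo1 lost their calls in limma on log2(FPKM + 1) (0.0772 and 0.0679). In limma with no filter all 6 list genes lost their calls. The members had 321 to 9155 fragments per library, and the effect of depth was not tested.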
